A study of Homo sapiens with 32 samples.

Results

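AFP encodes alpha-fetoprotein, and the 2 genes described here are AFP and ALB, its neighbour on chromosome 4, which encodes albumin. They were chosen by gene symbol: AFP because earlier work on these same arrays had listed it among the genes lower in drug-resistant cells, ALB because it lies beside AFP. These are 2 of 14884 genes with a named array feature, and each is measured by a single feature. The cells were K-562, a suspension line from a human chronic myeloid leukemia. Its growth is driven by a fusion kinase made from BCR, and imatinib and nilotinib inhibit that kinase. The 32 arrays fall into 8 sets of 4: lines 1 and 2 made resistant to 0.5 µM imatinib (low-imatinib lines), lines 1 and 2 made resistant to 2 µM imatinib (high-imatinib lines), lines 1 and 2 made resistant to 0.1 µM nilotinib (nilotinib lines), and treatment-naive cells, whose arrays carry the letter S or K. Resistance was built up by raising the drug concentration in steps, and every group was K-562 with no other engineered change in the labels. The growth text, the same for all groups, describes medium without either drug, so it is not clear whether drug was present at harvest. Each line is a biological replicate by the design text and its 4 arrays are technical replicates. What S and K stand for is not given, and the arrays of a letter were counted as a naive set. The naive cells that a given line came from are not named in the labels.

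Alpha-fetoprotein is the main plasma protein of the fetus, secreted by the yolk sac and the fetal liver. Its gene is largely shut off in the liver after birth and can be active again in liver cancer and in yolk sac tumours, which is why the protein is used as a tumour marker. Albumin, a related carrier protein, takes its place in adult plasma. In the mouse, both genes are known to be driven by liver-enriched factors at their promoters and by enhancers that lie between them. Neither gene is a marker of blood cells, and K-562 is not of liver origin.

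AFP was lower in all 6 resistant lines than in both naive sets, by between 1.28 and 1.69 log2 units, whichever drug or dose the line had been selected with. ALB was lower in the same 6 lines by between 0.37 and 0.64, and all 6 lines lay below both naive sets for 15.9% of genes. The ALB call (limma adjusted p = 0.0484) lay close to the threshold of 0.05 and was lost under some of the alternatives given below. No difference between the 3 resistances passed the test for either gene. Values are log2 signals as deposited, so a difference of 1 is a doubling of the signal. In such bulk RNA, fewer cells that transcribe a gene and less RNA of that gene per cell cannot be told apart.

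The promoters of both genes are shown because the data bear on whether the 2 neighbours move together. Of the factors described further on, only those of the FOXA group bind a motif marked here. Each is the 250 bases before the gene's start in RefSeq, GRCh38.p14, plus strand, 5′ to 3′; AFP is chr4:73435971-73436220 and ALB is chr4:73404037-73404286. Capitals mark matches to TATAAA, the TATA box, to TGTTTNC, the core of the forkhead motif bound by factors of the FOXA group, and to TTGCNNAA, a motif of the C/EBP family.
AFP: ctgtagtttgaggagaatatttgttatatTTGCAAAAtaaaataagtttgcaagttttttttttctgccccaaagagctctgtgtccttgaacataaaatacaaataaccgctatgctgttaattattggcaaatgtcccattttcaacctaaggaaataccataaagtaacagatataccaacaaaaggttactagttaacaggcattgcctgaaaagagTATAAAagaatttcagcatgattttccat
ALB: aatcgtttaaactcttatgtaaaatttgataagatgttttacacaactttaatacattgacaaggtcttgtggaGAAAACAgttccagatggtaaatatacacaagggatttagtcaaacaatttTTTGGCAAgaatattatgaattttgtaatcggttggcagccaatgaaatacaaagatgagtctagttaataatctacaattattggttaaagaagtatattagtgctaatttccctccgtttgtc
The AFP window held TATAAA starting at position -29 from the gene's start, and the ALB window held none. The forkhead core matched the minus strand of the ALB window at -176 and was not found in the AFP window. The C/EBP motif matched once in each, at -221 in AFP and on the minus strand at -125 in ALB. Searched on both strands of 35116 promoter windows of the same length, TATAAA was present in 10.7%, TGTTTNC in 15.5% and TTGCNNAA in 9.05%. The motifs can overlap, and a match of letters is not a measured binding site.

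In low-imatinib line 1, AFP had 4.59, 4.72, 4.45 and 4.94 on the 4 arrays. Low-imatinib line 2 had 4.42, 4.78, 4.89 and 4.92. The arrays of these 2 lines covered nearly the same range. High-imatinib line 1 had 4.84, 5.04, 4.63 and 4.88, and 5.04 was the highest AFP signal on any resistant array. High-imatinib line 2 had 4.58, 4.95, 4.47 and 4.78. Nilotinib line 1 had 4.75, 4.68, 4.80 and 4.53. Nilotinib line 2, which had the lowest mean, had 4.38, 4.53, 4.27 and 4.57. Naive S had 6.26, 5.75, 6.48 and 5.92, and naive K had 6.25, 6.10, 6.37 and 5.91. All 24 resistant arrays lay below all 8 naive arrays, and the highest resistant array was 0.71 below the lowest naive one. Such a separation of arrays was seen for 0.363% of genes; AFP was chosen for this contrast, so its place there is a description.

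**Figure D1:**
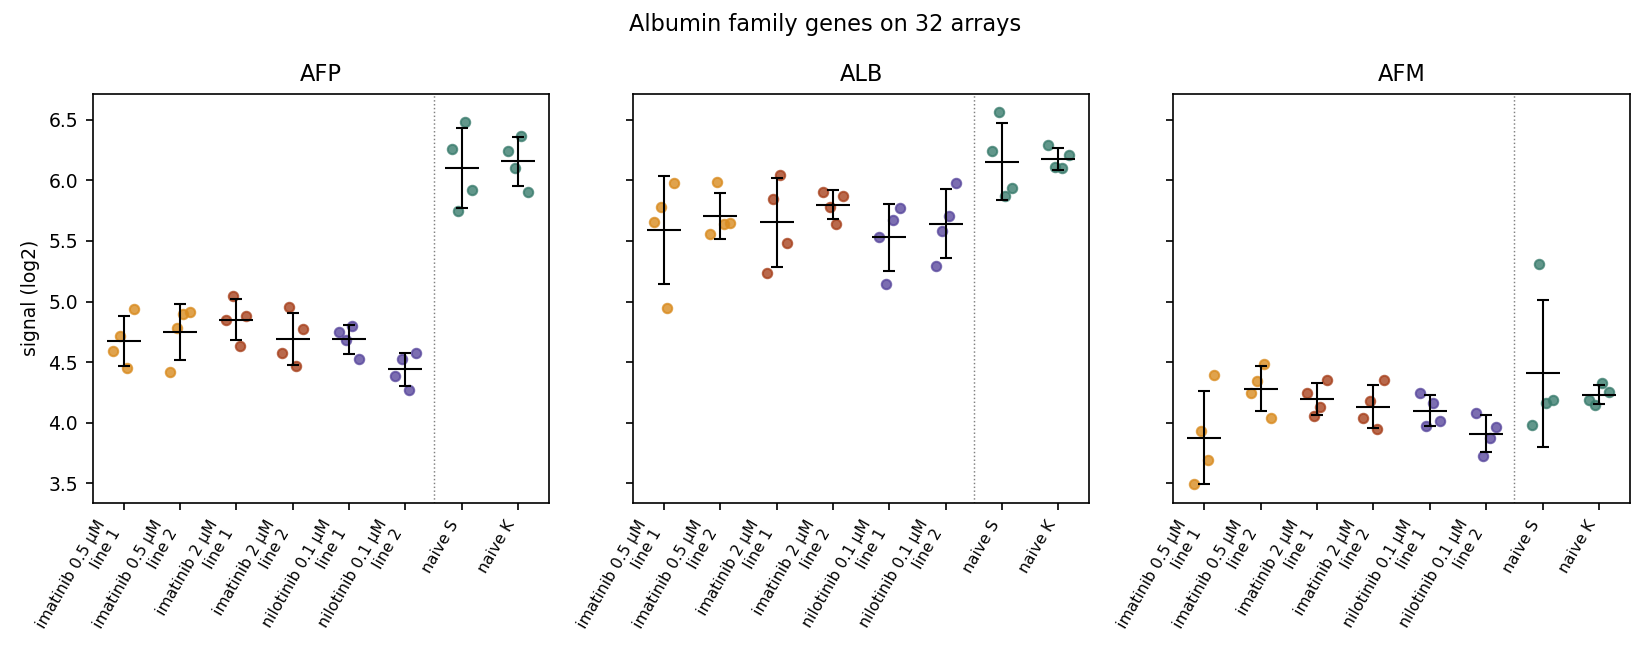
Log2 signal of AFP, ALB and AFM (vertical axis) on each of the 32 arrays, grouped by set (horizontal axis), with the resistant lines left of the dotted line and the naive sets right of it. Points are arrays, horizontal bars are set means and whiskers are the SD over 4 arrays. AFP points of the resistant lines end at 5.04, below every naive array, whereas the ALB and AFM points of the 2 kinds of cells overlap.

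Averaged over the 2 lines of each resistance, AFP was 4.71 ± 0.054 in low-imatinib, 4.77 ± 0.11 in high-imatinib and 4.56 ± 0.18 in nilotinib lines, against 6.13 ± 0.036 in naive cells (SD, n = 2 sets each). Over all resistant lines it was 4.68 ± 0.14 (SD, n = 6). The limma estimate for all resistant lines minus naive was -1.45 ± 0.11 (standard error), with a 95% interval of -1.72 to -1.18, which is a signal 2.73-fold lower (2.26 to 3.29). For low-imatinib lines it was -1.42 ± 0.14, for high-imatinib lines -1.36 ± 0.14 and for nilotinib lines -1.57 ± 0.14. No p-value is given for these, since AFP was picked for them. Ordered by the size of the fall over all 14884 genes, AFP was number 25 in all resistant lines, 62 in low-imatinib, 53 in high-imatinib and 16 in nilotinib lines; the 3 resistances share their naive arrays. The median difference over all genes was -0.03.

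In naive cells AFP was a gene of moderate array signal, brighter than 37.1% of genes in naive S and 37.3% in naive K. In the resistant lines it was brighter than 5.48% to 9.06% of genes. Its naive signal was thus below that of the median gene, and its resistant signal near the dim end of the range. No detection calls or background probes were used. Whether any AFP transcript was above background, in the resistant lines or in naive cells, was not tested, nor was it for ALB in any set. In naive cells the 13 measured hepatocyte markers had a median of 6.19, where AFP had 6.13 and ALB 6.17. A fold near the dim end can understate a change.

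From low to high, the set means of AFP were 4.44 in nilotinib line 2, 4.68 in low-imatinib line 1, 4.69 in nilotinib line 1, 4.69 in high-imatinib line 2, 4.75 in low-imatinib line 2 and 4.85 in high-imatinib line 1, then 6.11 in naive S and 6.16 in naive K. The step of 1.26 between high-imatinib line 1 and naive S stood out from all others. Elsewhere, sets next to each other in this order had overlapping arrays, including nilotinib line 2 and low-imatinib line 1. The whole range over the 6 lines was 0.41.

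The question whether the level depended on the drug or its dose was tested, since these comparisons hold no naive array. High-imatinib minus low-imatinib lines was 0.06 ± 0.14 for AFP (95% interval -0.27 to 0.39; limma adjusted p = 0.979). Nilotinib minus low-imatinib lines was -0.15 ± 0.14 (-0.48 to 0.18; limma adjusted p = 0.831), and nilotinib minus high-imatinib lines was -0.21 ± 0.14 (-0.54 to 0.12; limma adjusted p = 0.750). The nilotinib lines averaged lowest, with 1 of the 2 lines making most of that distance. With 2 lines a group, a difference of up to 0.54 between resistances lies within these intervals. The same comparisons called 0% of all genes by limma, with 722, 1028 and 943 genes at an unadjusted p under 0.05, in the order given.

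Lines of the same resistance were compared against the spread between technical arrays only. For AFP, low-imatinib line 1 minus line 2 was -0.08 ± 0.14 (limma adjusted p = 0.780), high-imatinib line 1 minus line 2 was 0.16 ± 0.14 (limma adjusted p = 0.456), and nilotinib line 1 minus line 2 was 0.25 ± 0.14 (-0.04 to 0.54; limma adjusted p = 0.212). Naive S minus naive K was -0.05 ± 0.14 (limma adjusted p = 0.849). None of these passed the threshold of 0.05, in comparisons that called 18.7%, 33.0%, 27.6% and 12.4% of all genes.

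ALB, the gene next to AFP, had a smaller difference, with overlapping arrays. In the 8 low-imatinib arrays the lowest, median and highest ALB signals were 4.95, 5.65 and 5.99. In the high-imatinib arrays they were 5.23, 5.82 and 6.05, and in the nilotinib arrays 5.14, 5.63 and 5.98. In the naive arrays they were 5.87, 6.16 and 6.56. Of the 24 resistant arrays, 19 lay below every naive array, so single arrays overlapped. The set means did not: the 6 lines had 5.59 and 5.71 (low-imatinib), 5.65 and 5.80 (high-imatinib) and 5.53 and 5.64 (nilotinib), against 6.15 in naive S and 6.18 in naive K. A gap of this kind, with all 6 lines below both naive sets, was present in 15.9% of genes.

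ALB averaged 5.65 ± 0.094 over the resistant lines (SD, n = 6) and 6.17 ± 0.018 in naive cells (SD, n = 2), and it was lower in all 6 lines. The difference was -0.51 ± 0.10 (95% interval -0.76 to -0.27), or 1.43-fold lower (1.20 to 1.69), with a limma adjusted p of 0.0484, in a comparison that called 3.72% of all genes, 0.504% lower and 3.21% higher. The call lies close to the threshold. It was kept without either high-imatinib line and lost when any other single set was left out, with limma adjusted p-values of 0.0997 and 0.101 without low-imatinib line 1 or 2, 0.0798 and 0.0556 without nilotinib line 1 or 2, and 0.214 and 0.295 without naive S or K. By resistance, ALB differed from naive by -0.52 ± 0.13 in low-imatinib lines (limma adjusted p = 0.105), -0.44 ± 0.13 in high-imatinib lines (limma adjusted p = 0.204) and -0.58 ± 0.13 in nilotinib lines (limma adjusted p = 0.0615). None of these 3 passed; by the same test 0% of genes passed in low-imatinib and in high-imatinib lines, with 3215 and 2266 at an unadjusted p under 0.05, and 0.443% passed in nilotinib lines.

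**Figure D2:**
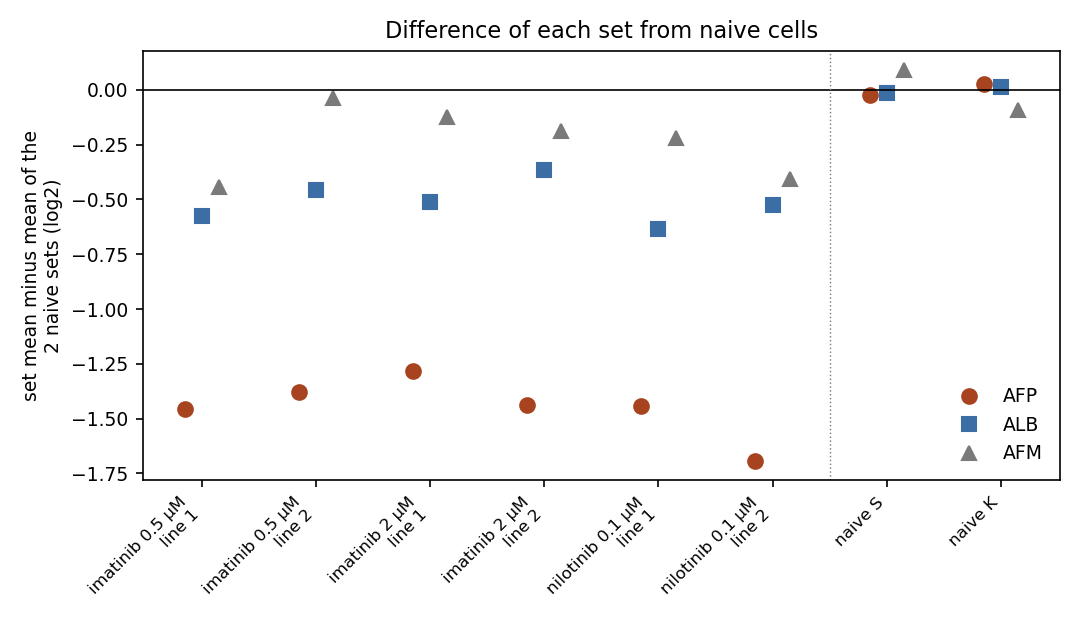
Difference of each set mean from the mean of the 2 naive sets (vertical axis, log2) for AFP, ALB and AFM, by set (horizontal axis), resistant lines first and the naive sets last. The 6 AFP points lie between -1.69 and -1.28, the ALB points between -0.64 and -0.37, and the AFM points between -0.44 and -0.04.

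Between resistances ALB showed no difference past the threshold. High-imatinib minus low-imatinib lines was 0.08 ± 0.13 (-0.23 to 0.38; limma adjusted p = 0.970), nilotinib minus low-imatinib was -0.06 ± 0.13 (-0.37 to 0.24; limma adjusted p = 0.913) and nilotinib minus high-imatinib was -0.14 ± 0.13 (-0.44 to 0.16; limma adjusted p = 0.776). Line 1 minus line 2 was between -0.15 and -0.11 in the 3 resistances and naive S minus K was -0.02, with limma adjusted p-values between 0.608 and 0.944.

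The fall of AFP exceeded that of ALB in every line, by between 0.77 and 1.17. The lines did not rank alike for the 2 genes. No tested difference between lines of a resistance or between resistances passed for either gene, so these orders may reflect spread between arrays. Nilotinib line 2 had the largest AFP fall, at -1.69, and an ALB fall of -0.52. Nilotinib line 1 had the largest ALB fall, at -0.64, and an AFP fall of -1.44. High-imatinib line 2, with the smallest ALB fall of -0.37, also had -1.44 for AFP. Across the 8 set means the 2 genes correlated at r = 0.942, but the naive and resistant sets form 2 clusters, and within the 6 lines r was 0.127. With such small differences between lines, the r of 0.127 does not show whether the 2 genes vary together from line to line. Across arrays, as deviations from their set means, r was 0.0528 over 32 arrays.

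AFM encodes afamin, a vitamin E-binding plasma protein of the albumin family, and lies on the far side of AFP. The family's remaining gene, GC, is not analysed here. AFM was among the dimmest genes in every set, brighter than 2.69% to 4.25% of genes. It averaged 4.08 ± 0.16 in resistant lines (SD, n = 6) and 4.32 ± 0.13 in naive cells (SD, n = 2). The difference of -0.24 ± 0.14 (-0.57 to 0.10) did not pass (limma adjusted p = 0.283). A single naive S array had 5.31, and the other naive arrays lay between 3.98 and 4.33.

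ALB went along with a pattern found between arrays of the same set more than AFP did, by correlations not tested against each other. The first principal component of array deviations from their set means, called the technical axis, held 16.8% of the variance within sets. It averaged 6.09 and 5.69 for low-imatinib lines 1 and 2, -2.13 and 2.73 for the high-imatinib pair, and 21.2 and 12.3 for the nilotinib pair, against -20.8 in naive S and -25.1 in naive K. Within sets, ALB correlated with the axis at r = -0.347 and AFP at r = -0.148, over 32 arrays, as a description. Taking the axis out subtracts it from every array, including any true difference between resistant and naive cells along it. Resistant and naive sets did differ in their scores, so values without the axis need not be closer to the true difference. With the axis taken out, the AFP difference over all resistant lines was -1.35. The ALB difference was then -0.21 ± 0.10, and its limma adjusted p was 0.402.

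In these arrays the sign of a difference went with signal level. With all genes ordered by mean signal over all arrays and split into 5 equal groups, 81.9% of the dimmest group, which holds AFP and AFM, were lower in the resistant lines, with a median difference of -0.16. In the next group, which holds ALB, 79.3% were lower, also with a median of -0.16. In the brightest group 16.2% were lower, with a median of 0.39. Without the technical axis, the medians of these 3 groups were -0.06, -0.04 and 0.10. Resistant arrays make up 24 of the 32, so a gene's own change helps to set its group. When genes were ordered by their mean over the naive arrays alone, a choice made after seeing the data, AFP and ALB both fell in the second group from the dim end. Of that group 70.8% were lower in the resistant lines, with a median of -0.13, and -0.01 without the technical axis.

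**Figure D3:**
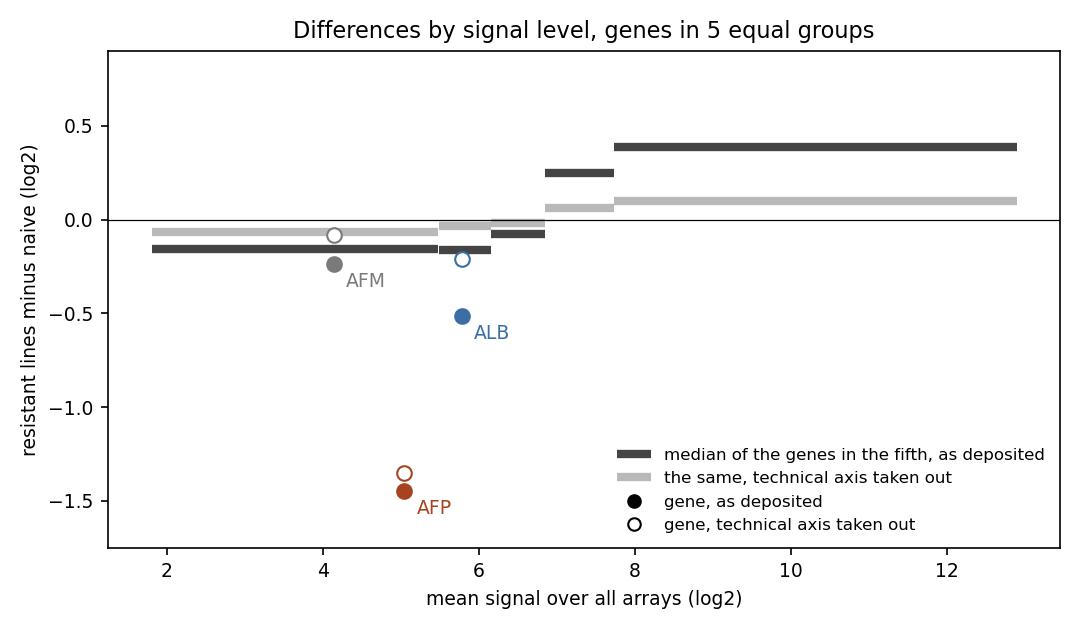
Difference of resistant lines from naive cells (vertical axis, log2) against mean signal over all arrays (horizontal axis, log2). Dark bars are medians of all genes in 5 groups of equal size as deposited, light bars the same with the technical axis taken out, and filled and open circles are AFP, ALB and AFM under the 2 treatments. AFP lies at -1.45 and -1.35, below the bars, and ALB at -0.51 and -0.21.

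Among genes that also varied, those whose set means followed AFP most closely were, by Pearson's r over 8 sets, NAV2 (0.989), PCED1B-AS1 (0.973), FN1 (0.962), MIR4757 (0.962) and IL9R (0.956), out of 3552 genes with an SD of 0.34 or more. Since the naive sets stand apart from the lines, such an r reflects mainly that step. Within the 6 lines alone the r with AFP was 0.760, 0.485, 0.116, 0.516 and 0.654 for the same genes. NAV2 belongs to the neuron navigator genes and had 6.12 and 6.33 in low-imatinib, 6.39 and 6.20 in high-imatinib and 6.38 and 6.10 in nilotinib lines, against 7.77 in naive S and 7.58 in naive K, a difference of -1.42. These values are of its brightest feature, and with the mean of all NAV2 features the difference was -0.87. FN1 encodes fibronectin, a protein of the extracellular matrix. Its set means were 5.72 to 6.35 in the lines, against 9.84 in naive S and 8.81 in naive K, a difference of -3.39. PCED1B-AS1, a long noncoding RNA, differed by -1.51, the microRNA gene MIR4757 by -0.72 and IL9R, which encodes the receptor of interleukin 9, by -1.30. Over the alternatives other than leaving out a set, MIR4757 ranged from -1.07 to -0.33.

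The genes most opposite to AFP were ZNF75A (r = -0.986), a zinc finger gene, CENPP (-0.985), a centromere protein gene, and CCNT2 (-0.983), which encodes a cyclin of transcription elongation. ZNF75A was between 8.32 and 8.80 in the lines, against 7.06 in naive S and 6.86 in naive K, a difference of 1.60. CENPP and CCNT2 differed by 0.95 and 0.92, and by 0.58 and 0.51 without the technical axis. The genes most like ALB, among 13419 with an SD of 0.125 or more, were the homeobox gene DLX5 (r = 0.991; difference -0.42), ONECUT1 (0.989; -0.40), which encodes a liver-enriched transcription factor, and the sulfotransferase gene CHST1 (0.986; -0.46). Without the technical axis the difference of CHST1 was -0.10. For these 3, r with ALB within the 6 lines was 0.941, 0.949 and 0.977. These correlations describe 8 sets and carry no test.

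Of 42 genes known to act on AFP in human or mouse, 23 were measured. In all resistant lines against naive cells, 1 was higher and 1 lower past the threshold, and 21 did not pass, where 3.21% of all genes were called higher and 0.504% lower. The list's median difference was 0.09, against -0.03 over all genes. The gene that fell was FOXA2, which encodes a forkhead factor that opens chromatin at liver genes. It had 6.72 and 6.32 in low-imatinib, 6.55 and 6.65 in high-imatinib and 6.67 and 6.37 in nilotinib lines, against 7.28 in naive S and 7.33 in naive K. The difference was -0.75 ± 0.15 and lower in 6 of 6 lines (limma adjusted p = 0.0457). The gene that rose was TP73, whose protein, a relative of p53, can repress AFP. It had 7.04 and 7.24 in low-imatinib, 6.58 and 7.47 in high-imatinib and 6.74 and 6.80 in nilotinib lines, against 5.81 in naive S and 5.69 in naive K, a difference of 1.23 ± 0.22 (limma adjusted p = 0.0411). For both genes the direction held in all 6 lines. Among all genes, all 6 lines lay below both naive sets for 15.9% and above both for 17.0%. The call of each was lost when any set other than a high-imatinib line was left out. Their limma adjusted p-values then lay between 0.0534 and 0.295 for FOXA2 and between 0.0515 and 0.295 for TP73. With the technical axis taken out the differences were -0.67 and 0.93, and the limma adjusted p was 0.173 for each. The part of FOXA2 or TP73 in the AFP difference was not tested.

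ZHX2 and ZBTB20, which shut AFP off in the mouse liver after birth, did not pass the threshold. ZHX2 averaged 6.30 in resistant lines and 6.35 in naive cells (difference -0.05 ± 0.21, limma adjusted p = 0.884), and ZBTB20 averaged 5.33 and 5.47 (difference -0.15 ± 0.14, limma adjusted p = 0.490). The sign for ZHX2 turned with the technical axis taken out (0.07). ZFHX3, another repressor of AFP, averaged 7.37 in resistant lines and 6.81 in naive cells, a difference of 0.56 ± 0.14 that missed the threshold (limma adjusted p = 0.0670). Of the other FOXA genes, FOXA1 differed by -0.12 ± 0.13 and FOXA3 by -0.15 ± 0.13, with limma adjusted p-values of 0.551 and 0.446. Uncalled differences moved with the setting: without the technical axis ZBTB20 was -0.02, ZFHX3 0.27, FOXA1 -0.21 and FOXA3 -0.43, and after quantile normalization ZBTB20 was -0.0072, FOXA1 -0.0049 and FOXA3 -0.26. The 2 widest differences of the list, named after their values were seen, were in PROX1 and GATA6, which encode a homeobox and a zinc finger factor of early liver and gut. PROX1 differed by 1.65 ± 0.70, with lines between 6.59 and 8.89, and GATA6 by 1.49 ± 0.39, with lines between 7.06 and 8.80; their limma adjusted p-values were 0.168 and 0.0717. GATA6 passed without high-imatinib line 1 (1.76, limma adjusted p = 0.0133) or line 2 (1.21, 0.0245). With the set as a random block PROX1, GATA6 and ZFHX3 all passed, at limma adjusted p-values of 0.00025, 1.9e-06 and 0.0064. That fit takes the 32 technical arrays with 1 within-set correlation (0.435) shared by all genes. Its error can therefore be too small for a gene whose lines differ widely. For PROX1 the standard error was 0.32 in that fit, against 0.70 on set means. The calls of FOXA2 and TP73 were also lost with every array feature in the fit (limma adjusted p = 0.0699 and 0.0643). In the separate resistances 0 of the 23 passed, where 0% of all genes passed in low-imatinib and high-imatinib lines and 0.443% in nilotinib lines.

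**Figure D4:**
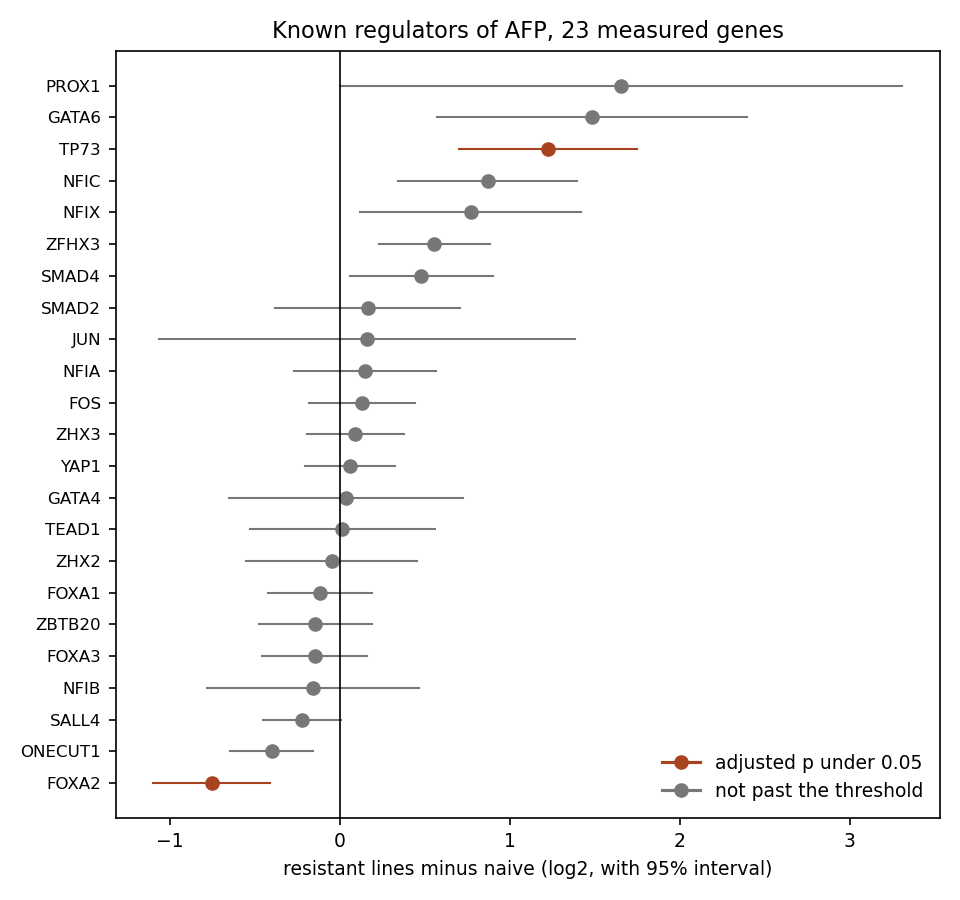
Difference of all resistant lines from naive cells (horizontal axis, log2) with its 95% interval for the 23 measured genes known to act on AFP (vertical axis, sorted by difference). FOXA2 at -0.75 and TP73 at 1.23, in red, passed the threshold, and the 21 grey genes did not.

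Other genes of liver and yolk sac secretion were not called. Of 53 listed, 39 were measured and 0 passed in all resistant lines against naive (smallest limma adjusted p 0.0590), where 3.72% of all genes passed. At that share, 0 of 39 says little about the list. A difference below 0 was found for 37, with a median of -0.21, against -0.03 over all genes. From the dimmest to the brightest of the 5 signal groups described above, 81.9%, 79.3%, 58.8%, 25.9% and 16.2% of genes were lower. Members of the list lie in more than the 2 dimmest groups, and the list was not matched to all genes by level. Once the technical axis was taken out, 25 of the 39 measured list members were below 0, and their median came to -0.05. The smallest adjusted p belonged to APOE, a lipid carrier gene named after its value was seen, which averaged 5.85 in resistant lines and 7.03 in naive cells (-1.19 ± 0.28). APOE passed with the replicate block (limma adjusted p = 0.0377), with the set as a random block (1.2e-05) and without nilotinib line 2 (0.0405). Of 25 oncofetal and fetal genes, 17 were measured and 0 passed (smallest limma adjusted p 0.0662), in the same comparison that called 3.72% of all genes. Of these 17, 8 were above 0 and 9 were below 0, and the median was -0.05. That median turned to 0.08 without the technical axis, with 5 of 17 below 0, and to 0.03 after quantile normalization. Both lists had 0 members past the threshold in each separate resistance. Of all genes, 0% passed there in low-imatinib and high-imatinib lines and 0.443% in nilotinib lines.

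Markers of K-562 and of other cells were set beside these results. Of 15 markers of the erythroid leukemia line, 8 were measured, with a median level above 82.8% of genes in resistant lines and 81.9% in naive cells. Among them TAL1 (1.12 ± 0.19) and GFI1B (1.04 ± 0.14), both factors of early blood cells, were higher in resistant lines, 2 of 8 where 3.21% of all genes were called higher (limma adjusted p = 0.0380 and 0.0335); both calls were lost without naive S or K or without low-imatinib line 1 or 2, at limma adjusted p-values of up to 0.290, with every array feature in the fit (0.0612 and 0.0543), and with the technical axis taken out (0.84 and 0.70, limma adjusted p = 0.160 and 0.173). Of 17 hepatocyte markers 13 were measured, with levels of 3.76 to 7.10 in resistant lines and 3.995 to 7.49 in naive cells. Without detection calls, such levels do not show that these genes were transcribed. Of all genes in the 2 dimmest of the 5 signal groups, 81.9% and 79.3% were lower in resistant lines, and in the next 2 groups 58.8% and 25.9%. Some hepatocyte markers, such as TTR (7.10 in resistant lines, 7.49 in naive cells), were brighter than the 2 dimmest groups. The markers were not matched to all genes by level. Of the 13 hepatocyte markers, 0 passed and 13 were lower in resistant lines, with a median of -0.23 (-0.05 with the technical axis taken out). Their part in the AFP result was not tested. Of 11 epithelial and fibroblast markers 6 were measured and 0 passed (median -0.14). Of 6 markers of other blood cells 2 were measured and 0 passed (median -0.17). With 3.72% of all genes passing, 0 of 13, 6 or 2 markers says little about them.

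Along chromosome 4, 18 of the 20 measured genes nearest to AFP, 10 on each side, did not pass the threshold; 2 fell and 0 rose, where 0.504% of all genes were called lower and 3.21% higher. Those that fell were ALB and CXCL8, which encodes interleukin 8, a chemokine that draws neutrophils. CXCL8 had 4.52 and 4.46 in low-imatinib, 5.35 and 4.51 in high-imatinib and 4.46 and 4.96 in nilotinib lines, against 6.05 in naive S and 5.91 in naive K. The difference was -1.27 ± 0.23 (limma adjusted p = 0.0433), and all 6 lines lay below both naive sets. Its call was lost without naive S (limma adjusted p = 0.218), naive K (0.290), low-imatinib line 1 (0.0903), low-imatinib line 2 (0.0988) or nilotinib line 1 (0.0649). It was also lost after quantile normalization (-1.16, limma adjusted p = 0.0530), with every array feature (0.0660) and with the technical axis taken out (-1.48, limma adjusted p = 0.129).

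All 6 lines lay below both naive sets for 7 of these 20 genes, or 35.0%, against 15.9% of all genes. Of these, 1 of 10 was on the side of ALB and 6 of 10 on the side of AFM, where the chemokine genes lie. The median difference was -0.07 on the side of ALB and -0.38 on the side of AFM, and -0.16 and -0.22 with the technical axis taken out. A difference below 0 was found for 16 of the 20, and for 13 without the technical axis, when 0 passed. The 20 genes had a median level above 29.1% of genes in resistant lines and 36.5% in naive cells. Dim genes were more often lower, and the share of 15.9% was not matched for level. ANKRD17, the measured gene next to ALB, named for its place, averaged 9.47 in resistant lines and 9.35 in naive cells. Its difference of 0.11 ± 0.14 did not pass (limma adjusted p = 0.592), and its sign turned under quantile normalization (-0.21) and with the technical axis taken out (-0.23). MOB1B, named after its values were seen, had the largest rise of the 20, at 1.26 ± 0.26, and did not pass (limma adjusted p = 0.0507). It passed after a median shift (0.0490), without the dimmest 40% of genes (0.0413), with the set as a random block (4.1e-06) and without high-imatinib line 1 (0.0310) or nilotinib line 2 (0.0369), each a limma adjusted p.

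**Figure D5:**
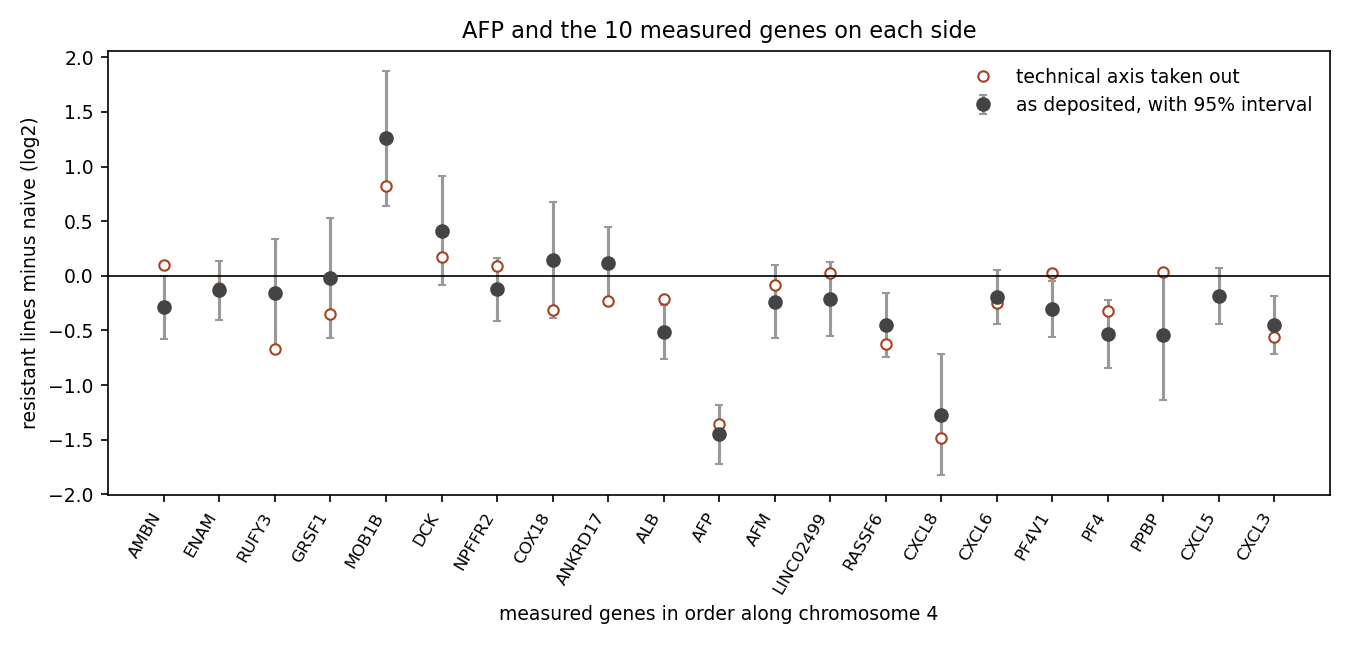
Difference of resistant lines from naive cells (vertical axis, log2) for AFP and the 10 measured genes on each side in their order along chromosome 4 (horizontal axis, not to scale in bases). Filled points with 95% intervals are values as deposited and open points have the technical axis taken out. AFP at -1.45 and CXCL8 at -1.27 lie lowest, with the 3 genes between them from -0.45 to -0.21.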

How the data were processed

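Per the submitters' processing notes, Transcriptome Analysis Console 4.0 was used; the normalization method was not given in the sources used here. The deposited values are intensities on a log2 scale, 1.24 to 14.2, 1 per array feature; the base was inferred from the range, since no label states it. Array medians were 5.85 to 6.11, from 100 ng of RNA per array. Precision of the comparisons with naive cells is limited by the number of lines and naive sets, 2 a group, since the arrays of a set are technical replicates.

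Of 53617 features, 16098 had 1 gene symbol, 0 had several and 37519 were unnamed here. For 779 genes with several features the brightest by mean was kept. All 16098 matched the GRCh38.p14 annotation by gene identifier, which served for names, gene order and RefSeq promoters.

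Set means of 4 arrays entered limma 3.58.1 (R 4.3.3), with a mean for each group (4 residual degrees of freedom, a spread shared by all groups). Lines within a group were compared on the 32 arrays (24 residual degrees of freedom). P-values were Benjamini-Hochberg adjusted over all 14884 genes within each comparison, threshold 0.05. The fit was tested on simulated data with independent noise for each gene. These held no pattern shared between genes, such as the technical axis, so they do not show how the fit behaves with one. The members and gene lists were chosen with earlier results of these data known.

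Named were AFP, ALB and AFM, the genes most and least like AFP (5 and 3) and most like ALB (3), list members past the threshold, and ZHX2, ZBTB20, ZFHX3 and FOXA1 to FOXA3, with 1 further gene of the rule not reported here; others are marked where they appear. Alternatives were quantile normalization, a median shift, the mean of a gene's features, a filter on the dimmest 40% of genes and every feature. Further alternatives were fits of the compared groups alone, removal of the technical axis, the set as a random block, a replicate block and leaving out sets. The random block shares 1 within-set correlation between all genes, so its calls, also those of APOE and MOB1B, are not calls on independent lines alone.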

Additional observations from a re-analysis of the deposited data

Results flagged for a closer look

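In the low-imatinib lines, ALB was lowest on array 3 of line 1, at 4.95, and its gap to the next of the 8 low-imatinib arrays was 0.588 of their whole range, above Dixon's 95% critical value. Chance gives such a gap in about 1 in 20 groups. The check was made for AFP and ALB at both ends of every set, of the arrays of each group and of the 6 lines. This value alone was flagged, and with that many groups searched, a flag by chance would not be unusual. The AFP signal on the same array was 4.45, within the range of the other low-imatinib arrays. Without array 3 of every set, the ALB difference between low-imatinib lines 1 and 2 was 0.07, against -0.12 with all arrays.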

How the results depend on the processing

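AFP in all resistant lines minus naive lay between -1.49 and -1.35 under every alternative run. Several of these could not change the estimate, which stayed at -1.45. They were the mean of a gene's features and every feature (AFP has 1), the compared groups alone (here all groups) and both block fits. It was -1.35 after quantile normalization, -1.44 after a median shift and -1.35 with the technical axis taken out. For nilotinib minus naive, -1.57 as reported, it was -1.42 after quantile normalization and -1.44 with the technical axis taken out, and between -1.69 and -1.44 when a set was left out. ALB in all resistant lines minus naive stayed below 0, but its call was lost after quantile normalization (-0.42, limma adjusted p = 0.0773), with every array feature (-0.51, adjusted p = 0.0767), with the technical axis taken out (-0.21, adjusted p = 0.402) and with the set as a random block (-0.51, adjusted p = 0.0664); leaving out a set gave -0.54 to -0.49 with adjusted p from 0.0407 to 0.295. The fit with every feature tests more features, and leaving out a set leaves fewer samples, with a lone set assumed to vary like the other groups; the cause was not tested for the others. AFP and ALB are among the dimmest 40% of genes, so that filter drops both.

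Deviations of same-numbered lines from group means correlated at -0.20 to 0.188, so they were not paired. The replicate number as a replicate block gave ALB -0.51 (adjusted p = 0.0473) and AFP -1.45, and changed no call of theirs. It gave 653 genes, against 553, in all resistant lines, 10 against 0 in low-imatinib and 104 against 66 in nilotinib lines.

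Differences with no call turned sign; ranges are over leaving out a set or array. For AFP, high- minus low-imatinib was -0.020 without high-imatinib line 1 (range -0.020 to 0.14), low-imatinib line 1 minus 2 was 0.044 without array 3 (-0.16 to 0.044), and naive S minus K was 0.051 without array 2 (-0.11 to 0.051). For ALB, nilotinib minus low-imatinib was 0.0042 after quantile normalization and 0.042 with the axis out, nilotinib minus high-imatinib was 0.021 with the axis out, low-imatinib line 1 minus 2 was 0.073 without array 3 (-0.27 to 0.073), and high-imatinib line 1 minus 2 was 0.029 without array 1 (-0.33 to 0.029). ALB naive S minus K was 0.036 after quantile normalization, 0.018 with the axis out and -0.18 to 0.058 without an array. ZHX2 was 0.073 with the axis out and -0.16 to 0.058 without a set, FOXA3 was -0.32 to 0.020 without a set, and ANKRD17 was -0.21 after quantile normalization and -0.23 with the axis out. The cause was not tested.

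Counts of genes past the threshold for all resistant lines (553) were 3660 with the random block, 362 after quantile normalization, 16 array features with every feature and 12 with the axis out, and 0 to 1742 without a set. For low-imatinib lines (0) they were 2672 with the random block, 4 without the dimmest genes and 1990 in the fit of the compared groups alone, and 0 to 2 without a set. For high-imatinib lines (0) they were 1679 with the random block, 1 with the compared groups alone or after quantile normalization, and 0 to 125 without a set. For nilotinib lines (66) they were 3696 with the random block, 1 after quantile normalization, 0 with every feature, with the compared groups alone or with the axis out, and 0 to 58 without a set. Between resistances (0 each) the random block gave 413, 550 and 201 for high- minus low-imatinib, nilotinib minus low-imatinib and nilotinib minus high-imatinib; every feature gave 2 and 1 for the last pair of these, and leaving out a set gave 0 to 270, 0 to 28 and 6 to 35. For naive S minus K (1840) they were 2990 after quantile normalization and 2871 with the axis out, and 582 to 1597 without an array.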
